A study of Oryza sativa Indica Group with 9 samples.

Results

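The small RNAs listed under the family numbers miR6300 and miR5368 are described here across 6 small RNA libraries and 3 degradome libraries of heated rice leaves. All mature sequences of the deposited miRNA list whose name carries exactly one of these family numbers were taken, whatever their species prefix, arm or suffix. This gave 21 of the 483 distinct sequences in the list, 17 of miR6300 and 4 of miR5368. The members were chosen by name, and a name is listed because the authors' read counts put its sequence above 0 in these libraries, so its presence is not a result. Every listed name has the prefix gma, for soybean, the species of the database entry that the authors matched.

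MicroRNAs are short RNAs, cut from a hairpin precursor, that guide the cleavage or silencing of transcripts with a matching site. Small RNA libraries also hold pieces of transfer RNA (tRNA) and ribosomal RNA (rRNA), and some database entries of plant miRNAs have the letters of such RNAs. The letters of soybean miR6300 are those of the 5′ end of a plant tRNA for aspartate, the letters of miR8175 are those of the 3′ end of the same kind of tRNA, and the soybean MIR5368 precursor reads like a stretch of the large-subunit rRNA of the chloroplast. These statements are background, and the source of the reads was not tested.

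The plants were seedlings of Oryza sativa Indica Group, breeding line HT54, described as heat tolerant, and whole leaf was taken at the three-leaf stage. They were kept at 45 °C for 0 h (untreated), 12 h or 24 h, and there are 2 small RNA libraries per time point, numbered 1 and 3, and 1 degradome library per time point. Per the labels, samples of a time point were independent and 1 further small RNA library per time point was left out by the submitters. No unheated leaves of 12 h or 24 h are among the samples, so heat and elapsed time cannot be told apart. RNA of 15 to 30 nt was cut from a gel, which sets the lengths that could be seen.

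Of the miR6300 sequences, 14 share the 5′ end and the seed (bases 2 to 8, in capitals) of the database entry and differ in how far they run at the 3′ end. The authors write R+4 for 4 added bases and L-1 for 1 base fewer at the 5′ end. These 8 lengths, from 18 to 25 nt, are shown by 1 sequence each, because they carry nearly all reads of the family.
gma-miR6300: gTCGTTGTagtatagtgg
gma-miR6300_R+1: gTCGTTGTagtatagtggt
gma-miR6300_R+2_2: gTCGTTGTagtatagtggtg
gma-miR6300_R+3_2: gTCGTTGTagtatagtggtgg
gma-miR6300_R+4: gTCGTTGTagtatagtggtgag
gma-miR6300_R+5_4: gTCGTTGTagtatagtggtgagt
gma-miR6300_R+6_2: gTCGTTGTagtatagtggtgagta
gma-miR6300_R+7: gTCGTTGTagtatagtggtgagtat

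The other 3 miR6300 sequences start further along the same stretch and so have other seeds. In their names, 1ss8AG stands for 1 substitution at position 8, with A in the database entry and G in the read.
gma-miR6300_L-1R+5: tCGTTGTAgtatagtggtgagt
gma-MIR6300-p3_1ss11AG: gTATAGTGgtgagtattcccgcc
gma-MIR6300-p3_1ss8AG: tAGTGGTGagtattcccgcc

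The 4 miR5368 sequences share no seed. The first 2 overlap, since gma-MIR5368-p3_1ss3TC begins 2 bases after gma-MIR5368-p3_1ss5TC on the soybean precursor, and the others lie elsewhere on it.
gma-MIR5368-p3_1ss5TC: tGTTCCCTgggattggct
gma-MIR5368-p3_1ss3TC: tTCCCTGGgattggctttg
gma-MIR5368-p3_1ss4GA: gCCAAGGGacagtctcagg
gma-MIR5368-p3_2ss13GA17AG: aGCTTAGGtggaaggcgaagaa

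Several of the long variants carry a base near the 3′ end that differs from soybean. From R+4 on, gma-miR6300_R+4, gma-miR6300_R+5_4, gma-miR6300_R+6_2 and gma-miR6300_R+7 each differ from the soybean precursor by A20G (soybean base first, counted from the 5′ end of the sequence) and by nothing else. gma-MIR6300-p3_1ss8AG (A8G) and gma-MIR6300-p3_1ss11AG (A11G) have their substitution at the same base of the precursor. All 23 listed rice positions of miR6300 read G there, and 0 read A. The 4 sequences with A at that base, gma-miR6300_R+2_1, gma-miR6300_R+3_1, gma-miR6300_R+5_1 and gma-miR6300_R+6_1, are exact at 0 of the 23 positions. The first of them differs from the soybean precursor by T19C alone, and the others do not differ from it. Lack of an exact position is not particular to the A. gma-miR6300_R+3_2, gma-miR6300_R+5_2 and gma-miR6300_R+5_3 read G there, differ at another base, and are exact at 0 positions too.

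The 4 sequences with A at base 20 also had no read value of their own. Sequences whose names differ only in a last number carried the same value in all 6 libraries. In miR6300 this held for 10 sequences in 4 groups, with 2 sequences each for R+2, R+3 and R+6 and 4 for R+5. The reads of such a group cannot be assigned to one of its sequences. The 17 miR6300 sequences therefore give 11 read values, the 4 miR5368 sequences give 4, and each shared value was counted once in the family sums.

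Rice positions listed for miR6300 lay on 10 chromosomes. The authors' hairpin prediction failed at 22 of the 23 positions and succeeded at 1, and for other families of the same table it failed at 66 of 92. At 16 of the 23 positions miR8175 is listed too. The letters GGTTCGA, which tRNA genes hold in the T arm, were found in 18 of the 23 listed precursors of miR6300 (78.3%). Among the 420 precursors listed under names of other families they were found in 11 (2.62%). These groups overlap, because over all 446 listed precursors the letters were found in only 27. Some precursors of miR6300 are thus also counted among the 420. A match is a description of letters and not a test of origin. The precursor of gma-miR6300_R+4 at chr9:10344848-10344929 (plus strand, genome build not given in the sources used here) is shown because it holds both ends, with gma-miR6300_R+4 and the stretch listed as miR8175 in the authors' capitals.
listed precursor: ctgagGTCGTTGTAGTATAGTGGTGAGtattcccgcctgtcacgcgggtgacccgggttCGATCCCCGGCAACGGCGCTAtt

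A position listed for a variant was seldom particular to it. The table gives each sequence 1 or 2 positions, but gma-miR6300_R+4 and gma-miR6300_R+7 are each held exactly by 21 of the 23 precursors. No position is listed for gma-miR6300_R+2_1. The 5 listed positions of miR5368 lay on 3 chromosomes, none had a predicted hairpin, and none held the sequence exactly: gma-MIR5368-p3_1ss4GA differs from both of its positions by C3A (sequence base first). None of the 5 held GGTTCGA.

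Reads of the miRNA list, shared values counted once, numbered 32457 and 98131 untreated (replicates 1 and 3), 145811 and 10055 after 12 h, and 117973 and 226214 after 24 h. Replicate 3 at 12 h is thus the shallowest library, and 3 of its reads equal 194 CPM (reads scaled to a common total after correction for composition), against 16.1 to 77.9 CPM in the others. miR6300 had 2168 and 10025.5 reads untreated, 2212.5 and 463 after 12 h, and 1476.5 and 3150 after 24 h. Fractions of a read arise where the authors divided reads among matches. miR5368 was far rarer, with 46.5 and 265 reads, 149 and 4.5 reads, and 70.5 and 454 reads in the same order. Its 4.5 reads in replicate 3 at 12 h leave each of its variants there at 0.5 to 2 reads, below or near the floor of 3 reads used here.

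The level of miR6300 was lower after heat. As a family it stood at 61807 and 96329 CPM untreated (replicates 1 and 3), at 12967 and 36940 CPM after 12 h, and at 17169 and 18431 CPM after 24 h. The 0 h libraries were the highest, above all heated ones, and the 12 h libraries had the largest ratio to each other. Levels are relative to the other listed small RNAs, and in whole leaf fewer cells of a type and less RNA per cell cannot be told apart. From a mean of 79068 ± 24410 CPM (SD, n = 2) at 0 h the family fell to 17800 ± 892 CPM at 24 h, a log2 change of −2.15 ± 0.55 (SE), or 4.44-fold, with an adjusted p of 0.00948 (edgeR's quasi-likelihood test over 124 families). In that comparison 11.3% of families were called lower. The call was lost without replicate 3 of 0 h (−1.83, adjusted p = 0.286) and with the authors' own scaling constants (−2.08, adjusted p = 0.0612).

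At 12 h the mean of miR6300 was 24954 ± 16951 CPM, and the log2 change against 0 h of −1.67 ± 0.55 did not pass the test (adjusted p = 0.0981, edgeR, with 2.42% of families called lower). It passed without replicate 3 of 12 h (−2.50, adjusted p = 0.0323), the library with the higher level, and without replicate 3 of 24 h (−1.59, adjusted p = 0.0132). Between 24 h and 12 h the log2 change was −0.48 ± 0.53 (adjusted p = 0.761, edgeR, with 1.61% of families called), and without replicate 3 of 12 h it was 0.24. The 12 h and 24 h libraries overlapped.

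miR5368 did not pass the test in any comparison. Its family level was 1340 and 2546 CPM untreated, 873 and 399 CPM after 12 h, and 825 and 2656 CPM after 24 h (replicates 1 and 3). Both 12 h libraries were below both 0 h libraries, while the 24 h libraries spanned the range of 0 h. The log2 change against 0 h was −1.53 ± 0.81 at 12 h (adjusted p = 0.425, edgeR) and −0.16 ± 0.77 at 24 h (adjusted p = 0.95), and it was 1.37 ± 0.80 from 12 h to 24 h (adjusted p = 0.586). The sign at 24 h turned without replicate 3 of 0 h (0.29) and without replicate 1 of 24 h (0.30). The change at 12 h was −0.77 without replicate 3 of 0 h and −1.07 without replicate 3 of 12 h, and that from 12 h to 24 h was 0.77 without replicate 3 of 12 h and 0.27 without replicate 3 of 24 h.

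**Figure D1:**
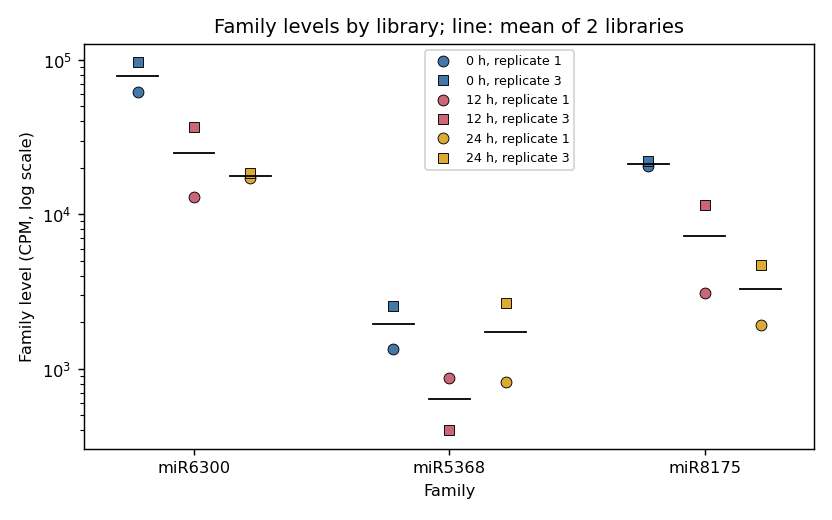
Family levels in CPM (log scale) of miR6300, miR5368 and miR8175 in each library, with circles for replicate 1, squares for replicate 3 and a line at the mean of the 2 libraries of a time point. Both 0 h libraries of miR6300, at 61807 and 96329 CPM, lie above its 4 heated libraries, while the 24 h libraries of miR5368, at 825 and 2656 CPM, lie on either side of its 0 h libraries.

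The authors' table of read classes, with 1 pooled value per time point, gave tRNA as 1.46%, 0.769% and 0.984% of all reads at 0 h, 12 h and 24 h and rRNA as 5.13%, 3.01% and 4.40%. Both classes were highest at 0 h. Their part in the levels of miR6300 and miR5368 was not tested.

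Within miR6300 the listed reads, with each shared value counted once, were spread over a ladder of 3′ ends with 2 peaks. The peaks depend on that counting. R+5 is a value shared by 4 sequences, and whether it is their sum or the value of each is not known. Counted for each of them, R+5 would exceed both R+4 and R+7 in every library. At 0 h, R+7 (25 nt) held 28.2 ± 0.56% of the reads of the family (SD, n = 2) and R+4 (22 nt) held 26.3 ± 5.02%. R+3 (21 nt), between the reference and R+4, held 1.30 ± 0.71%, and R+6 (24 nt) held 2.11 ± 0.93%. The 2 listed R+3 sequences are each held exactly by 0 of the 23 precursors. No 21-nt member ends as the precursors read, so the share of 21-nt ends that match them was not measured. The 18-nt database sequence itself held 10.2 ± 6.61%. In all, 95.1 to 98.9% of the reads of a library began at the 5′ end of the database entry.

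With shared values counted once, the same 2 peaks stood in most heated libraries. R+7 held 25.1% and 48.1% at 12 h (replicates 1 and 3) and 24.6% and 24.8% at 24 h. R+4 held 25.1% and 18.0% at 12 h and 17.6% and 21.1% at 24 h. In replicate 1 of 24 h, R+5 (20.2%) exceeded R+4, and R+6 held 9.04% there against 1.54% in replicate 3.

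Counted in the same way, the long end of the ladder, R+4 to R+7, held 73.6% and 62.1% of miR6300 reads untreated, 61.6% and 82.2% after 12 h, and 71.5% and 55.3% after 24 h. The exact 95% intervals for the extreme libraries were 78.5 to 85.7% for replicate 3 of 12 h and 53.5 to 57.0% for replicate 3 of 24 h, and they cover counting error only. The time points overlapped, and libraries of one time point differed by more than counting error. The short end, R+0 to R+2, ran the other way, from 14.6% in replicate 3 of 12 h to 38.7% in replicate 3 of 24 h.

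**Figure D2:**
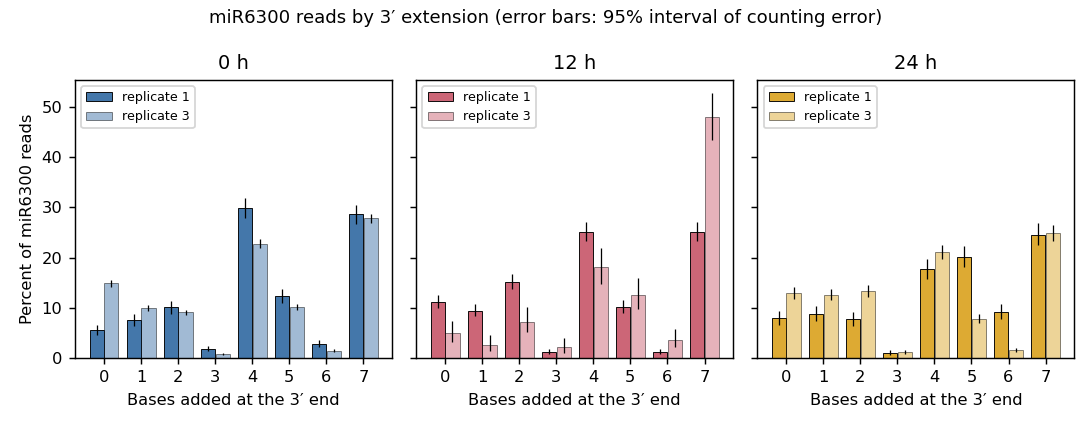
Percent of miR6300 reads by the number of bases added at the 3′ end of the 18-nt database sequence, by time point, with darker bars for replicate 1, paler bars for replicate 3 and error bars for the exact 95% interval of counting error. Each value shared by several sequences is counted once. With this counting, extensions of 4 and 7 bases hold the highest shares in 5 of 6 libraries. In replicate 1 of 24 h the extension of 5 bases (20.2%) exceeds that of 4 (17.6%), and replicate 3 of 12 h holds 48.1% of its reads at 7 bases.

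The most abundant read values, with shared values counted once, were the 2 peaks. gma-miR6300_R+4 stood at 16820 and 21680 CPM untreated (replicates 1 and 3), 3756 and 5443 CPM after 12 h, and 3151 and 3572 CPM after 24 h. Its 3 time points did not overlap, in falling order. The log2 change was −2.52 ± 0.75 at 24 h (adjusted p = 0.0166, edgeR over 459 sequences) and −2.07 ± 0.74 at 12 h (adjusted p = 0.111).

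gma-miR6300_R+7 stood at 16093 and 26453 CPM untreated, 3756 and 14449 CPM after 12 h, and 4382 and 4206 CPM after 24 h. Both 24 h libraries were low, but 12 h was split between a low and a high library. It fell at 24 h, with a log2 change of −2.31 ± 0.75 (adjusted p = 0.0314, edgeR), and its 12 h change of −1.24 ± 0.73 did not pass (adjusted p = 0.422).

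The 18-nt sequence gma-miR6300, the database entry itself, was the only member called at both times. Its untreated libraries held 3115 and 14166 CPM, those of 12 h held 1668 and 1490 CPM, and those of 24 h held 1400 and 2170 CPM. Replicate 3 of 0 h was far above every other library. The log2 change was −2.45 ± 0.75 at 12 h (adjusted p = 0.0416, edgeR) and −2.28 ± 0.74 at 24 h (adjusted p = 0.0314), and without replicate 3 of 0 h the log2 change was −1.03 at 12 h and −0.86 at 24 h.

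gma-miR6300_R+1 fell at 12 h. It stood at 4205 and 9355 CPM untreated, 1412 and 778 CPM after 12 h, and 1557 and 2132 CPM after 24 h. The lowest library was replicate 3 of 12 h, and both heated time points lay below 0 h. Its log2 change was −2.59 ± 0.75 at 12 h (adjusted p = 0.0298, edgeR) and −1.88 ± 0.72 at 24 h (adjusted p = 0.0766).

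gma-miR6300_R+3, 1 value shared by 2 sequences, had the lowest mean level of the ladder at each time point. It was at 1012 and 759 CPM untreated, 182 and 648 CPM after 12 h, and 157 and 188 CPM after 24 h. The 24 h libraries were low and alike, and the 12 h libraries were not. It fell at 24 h, with a log2 change of −2.33 ± 0.76 (adjusted p = 0.0314, edgeR), against −1.30 ± 0.79 at 12 h (adjusted p = 0.425).

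The sequences that begin inside the tRNA-like stretch were lowest at 12 h. gma-MIR6300-p3_1ss8AG was at 130 and 1091 CPM untreated, 27.0 and 0 CPM after 12 h, and 181 and 274 CPM after 24 h, on 4.5 and 114.5 reads, 3.5 and 0 reads, and 14.5 and 50.5 reads. The 12 h libraries were near or at 0, and replicate 3 of 0 h was high. The log2 change at 12 h was −4.71 ± 1.04 (adjusted p = 0.00168, edgeR), and it depends on few reads and on replicate 3 of 0 h, without which it was −2.48. Without replicate 1 of 12 h, no read is left at 12 h. gma-MIR6300-p3_1ss11AG, which ends at the same base, was at 441 and 1480 CPM untreated, 128 and 130 CPM after 12 h, and 254 and 376 CPM after 24 h. Its reads in the same order were 16.5 and 156, 19 and 2, and 21 and 70, so the 130 CPM lie below the floor of 3 reads. This sequence fell at 12 h, with a log2 change of −2.91 ± 0.85 (adjusted p = 0.0298, edgeR), and its change at 24 h was −1.62 ± 0.73 (adjusted p = 0.149). Without replicate 3 of 0 h these were −1.83 and −0.53, and the call at 12 h was kept in 1 of the 6 fits that leave out a library. Neither sequence was called at 24 h.

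The remaining miR6300 values were not called in either comparison. R+5, 1 value shared by gma-miR6300_R+5_1, gma-miR6300_R+5_2, gma-miR6300_R+5_3 and gma-miR6300_R+5_4, stood at 6930 and 9602 CPM untreated, 1520 and 3758 CPM after 12 h, and 3597 and 1316 CPM after 24 h, so each heated time point held a low and a higher library. R+2 was at 5658 and 8606 CPM untreated, 2256 and 2203 CPM after 12 h, and 1376 and 2256 CPM after 24 h. Both stood lower in all heated libraries than at 0 h, with log2 changes of −1.68 at 12 h for each, and of −1.75 (R+5) and −1.97 (R+2) at 24 h. gma-miR6300_L-1R+5, the variant that lacks the first base, had log2 changes of −2.11 and −1.39 on levels of 81.1 to 579 CPM. R+6 was at 1557 and 1376 CPM untreated, 169 and 1101 CPM after 12 h, and 1618 and 263 CPM after 24 h, with log2 changes of −1.41 ± 0.77 and −0.65 ± 0.71. Its groups overlapped at 24 h, since replicate 1 of 24 h was above both 0 h libraries.

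In all, 4 of the 11 miR6300 read values fell at 12 h and 4 at 24 h, and 0 rose. Among all 459 tested sequences, 2.61% were called lower at 12 h (12) and 6.54% at 24 h (30), and 0.436% and 2.4% were called higher. All 21 member sequences passed the filter on low counts. The sign was negative for 11 of 11 values at both times, with a median log2 change of −2.07 at 12 h and −1.88 at 24 h, against −0.02 and 0.01 over all tested sequences. The values are not independent, since the variants are parts of one stretch of RNA. The 12 h libraries lay below both 0 h libraries for 11 of 11 values and the 24 h libraries for 9 of 11. Over all tested sequences this held for 24.0% and 27.5%.

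The calls depend on the scaling. Of the 15 member values, 4 were called at 12 h and 4 at 24 h, against 2 and 1 with DESeq2's size factors, 4 and 1 with the authors' constants, 0 and 1 with the 3 top sequences taken out of the totals, 0 and 7 with library totals, and 5 and 5 with DESeq2's own test. They also rest on few libraries. Without replicate 1 or replicate 3 of 0 h, 1 and 0 members were called at 12 h, and none of the 15 values was called at 24 h. None was called at 24 h without either 24 h library, nor at 12 h without replicate 1 of 12 h. Between 24 h and 12 h, 0 of the 459 sequences were called by edgeR and 1 by DESeq2, while 38 had an unadjusted p under 0.05, of which 1 was among the miR6300 values and 1 among those of miR5368.

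**Figure D3:**
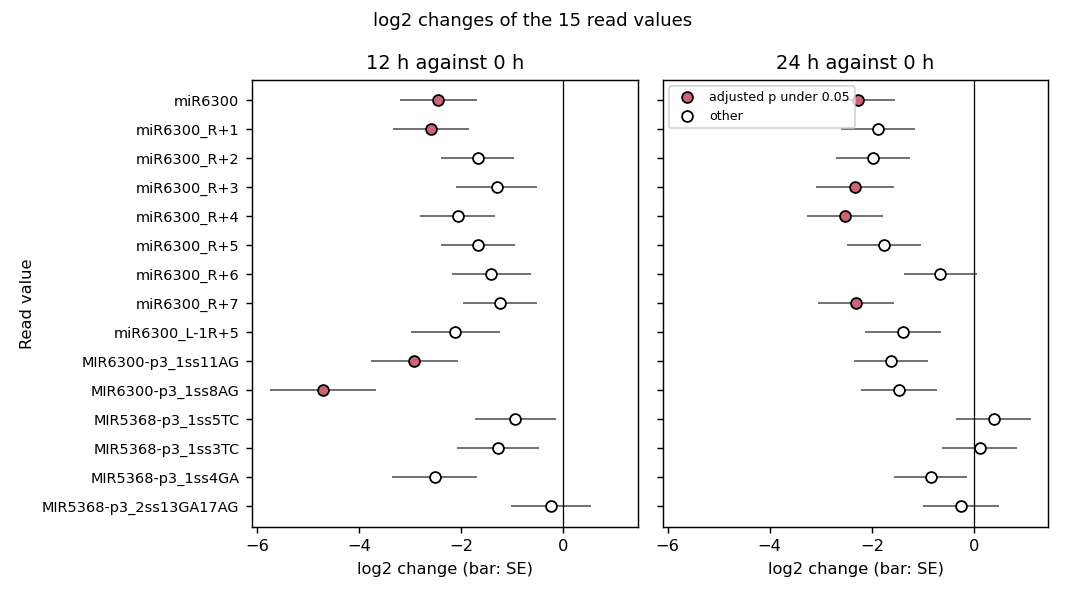
log2 changes against 0 h (bars: SE) of the 11 read values of miR6300 and the 4 of miR5368 at 12 h (left) and 24 h (right), with filled points for an adjusted p under 0.05. All miR6300 points lie below 0 in both panels, while at 24 h the miR5368 points lie on both sides, from −0.85 to 0.39.

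In the authors' deposited table, gma-miR6300_R+4 had a p-value of 0.0235 for the 3 time points in an analysis of variance. The other 14 member values had p-values from 0.0565 to 0.818 in the authors' deposited table. In it 43 of 469 read values (9.17%) had a p under 0.05, so the 1 of 15 members (6.67%) was near the background.

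No miR5368 variant was called. gma-MIR5368-p3_1ss4GA was at 234 and 1224 CPM untreated, 155 and 64.8 CPM after 12 h, and 362 and 467 CPM after 24 h. Replicate 3 of 0 h stood alone, and the value of 64.8 CPM is 0.5 read rounded up to 1. Its log2 change was −2.51 ± 0.83 at 12 h (adjusted p = 0.0767, edgeR), and with 0.5 read rounded down to an even 0 it was called (−2.69 ± 0.84, adjusted p = 0.0427).

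The overlapping pair behaved alike in level. gma-MIR5368-p3_1ss5TC was at 311 and 493 CPM untreated, 284 and 64.8 CPM after 12 h, and 205 and 849 CPM after 24 h. gma-MIR5368-p3_1ss3TC was at 415 and 417 CPM untreated, 216 and 64.8 CPM after 12 h, and 157 and 725 CPM after 24 h. Both were highest in replicate 3 of 24 h, and the 24 h libraries lay on either side of 0 h. Their log2 changes were −0.94 ± 0.79 and −1.28 ± 0.81 at 12 h (adjusted p = 0.625 and 0.432, edgeR), and 0.39 ± 0.73 and 0.11 ± 0.73 at 24 h (adjusted p = 0.800 and 0.963), the last 2 turning negative under library totals without composition scaling. gma-MIR5368-p3_2ss13GA17AG varied least, from 130 to 398 CPM over the 6 libraries, with log2 changes of −0.24 and −0.26.

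The make-up of miR5368 also differed between libraries of one time point. gma-MIR5368-p3_1ss4GA held 18.3% and 48.7% of the family untreated, 15.4% and 11.1% after 12 h, and 41.8% and 19.2% after 24 h. The overlapping pair held 36.2 to 64.5% of the reads. gma-MIR5368-p3_2ss13GA17AG held 21.5% and 15.1% untreated, 34.9% and 44.4% after 12 h, and 15.6% and 16.3% after 24 h. At 12 h the share of 2ss13GA17AG was thus above, and that of 1ss4GA below, every other library. The 44.4% stand on 2 of 4.5 reads, with an exact 95% interval of 5.27 to 85.3%, and the 34.9% of replicate 1 have one of 27.3 to 43.1%, which overlaps that of replicate 1 of 0 h (10.7 to 35.7%).

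**Figure D4:**
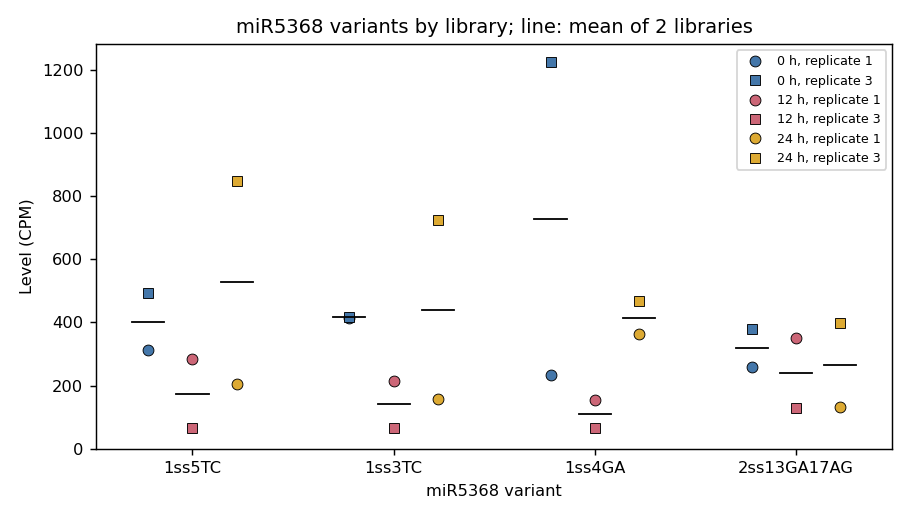
Levels in CPM of the 4 miR5368 variants in each library, with circles for replicate 1, squares for replicate 3 and a line at the mean of the 2 libraries of a time point. The highest library is replicate 3 of 0 h for 1ss4GA, at 1224 CPM, and replicate 3 of 24 h for the other 3 variants.

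miR8175 is also listed at 16 of the 23 miR6300 positions. As a family it was at 20412 and 22156 CPM untreated, 3094 and 11489 CPM after 12 h, and 1906 and 4681 CPM after 24 h. It was highest at 0 h, as miR6300 was, and replicate 3 was the higher library at every time point in both families. Its family log2 change was −1.56 ± 0.73 at 12 h (adjusted p = 0.296, edgeR) and −2.69 ± 0.75 at 24 h (adjusted p = 0.0141), from the same libraries and the same 0 h samples as for miR6300. All 5 miR8175 sequences end in CCA, the letters that cells add to the 3′ end of a tRNA after transcription, and 0 of the 23 miR6300 precursors hold any of them whole. ath-miR8175_L+3_1ss5AT made up most of the family untreated, at 13471 and 14052 CPM, and fell at 24 h (−3.98 ± 0.80, adjusted p = 0.000164, edgeR). Even without its last 3 bases, 0 of the 23 precursors hold it. Without the last 3 bases, 2 of the 5 are held exactly by 15 of the 23 precursors. These 2, ath-miR8175_L+1 (−2.09 ± 0.73, adjusted p = 0.0505, edgeR) and ath-miR8175_L-2 (−1.17 ± 0.71, adjusted p = 0.331), were not called at 24 h. The former is shown with its last 3 bases in capitals.
ath-miR8175_L+1: cgatccccggcaacggcgCCA

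Lists of other entries were set beside these families. Of 10 tested sequences of miR894, miR8175, miR8155 and miR5139, 0 were called at 12 h and 5 fell at 24 h, with median log2 changes of −1.72 and −2.58. Over all 459 sequences, 2.61% and 6.54% were called lower, with medians of −0.02 and 0.01. The 2 with the most reads were ppt-miR894_R+1, at −2.93 ± 0.82 at 24 h (adjusted p = 0.0108, edgeR), and ppt-miR894_L-3R+1, at −0.91 ± 0.73 (adjusted p = 0.506). Of 5 other soybean-named sequences, 0 were called at 12 h and 1 fell at 24 h, with median log2 changes of −0.99 and −0.85 beside the same shares and medians over all sequences. That one was gma-miR408a-3p_L-1R+3 (−3.10 ± 0.79, adjusted p = 0.00424), and the most abundant, gma-miR4995_L+1R+3, was at −0.46 ± 0.72 (adjusted p = 0.760). miR408 is known to target copper proteins.

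The 5 sequences outside both families whose log2 CPM followed miR6300 most closely over the 6 libraries, among 276 with at least 100 reads, were osa-miR5073_R+1_1ss20AT (Pearson's r = 0.98), ath-miR8175_L+1 (0.97), gma-miR408a-3p_L-1R+3 (0.96), osa-MIR1860-p5 (0.94) and mtr-MIR2606c-p3_2ss8TG18GA (0.94). For miR5368 they were peu-MIR2916-p3_2ss3TC18CA (r = 0.96), mtr-miR171c_R+1_2ss17AT19AT (0.96), osa-miR1857-3p (0.95), gma-miR4995_L+1R+3 (0.93) and PC-3p-53246_81 (0.89). The 2 families themselves had r = 0.29. The points share libraries and depth, so these values are a description.

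The degradome, a library of the 5′ ends of cleaved polyadenylated RNA, held few reads at sites predicted for the members. Of the 21 sequences, 7 had a listed site, over 19 gene loci, 8 for miR6300 and 11 for miR5368. Of all listed sequences, 43.1% had one. Variants of one family often share a site and its reads, and transcripts of one locus do too, so sites were counted by locus. Category 0, given to a site with the highest signal of its transcript, was reached at 0 of the 8 and 0 of the 11 loci, against 62 of 488 pairs (12.7%) of a family and a locus elsewhere in the table.

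No miR6300 site exceeded 3 reads. LOC_Os10g39980, annotated as a divalent ion symporter, had 3 reads at 0 h and 0 at 12 h and 24 h for gma-miR6300, with an alignment score of 3 (a lower score is a closer match). LOC_Os02g48790, annotated as MEI2-like protein 5, likewise had 3, 0 and 0 reads, for gma-miR6300_R+1 and gma-miR6300_R+2_2. LOC_Os10g37180, a single hybrid motif protein, had 0, 3 and 1 reads. The exact 95% Poisson interval is 0.619 to 8.77 for 3 reads and reaches 3.69 for 0 reads, so these times cannot be ordered. LOC_Os07g48630, annotated as ETHYLENE-INSENSITIVE3-like 1, a transcription factor of ethylene signalling, had 1, 2 and 0 reads.

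No miR5368 site exceeded 6 reads. LOC_Os01g59440, annotated as a leucine-rich repeat protein, was the only member locus with reads at all 3 times. Its site for gma-MIR5368-p3_1ss3TC had 6, 1 and 2 reads at 0 h, 12 h and 24 h, and the site for gma-MIR5368-p3_1ss5TC, 2 bases further along the transcript, had 2, 5 and 3 reads. The order of the time points thus differed between neighbouring sites. LOC_Os05g49380, annotated as DegP protease 1, had 0, 4 and 4 reads for gma-MIR5368-p3_1ss5TC. The other 9 loci had at most 2 reads in a library, and gma-MIR5368-p3_2ss13GA17AG had no listed site.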

How the data were processed

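Raw reads per mature sequence were deposited by the authors as estimated counts, with reads divided among matches. They also deposited a normalized signal (raw value times 1 constant per library), percent of all reads per class, log2 changes, analysis-of-variance p-values, and for the degradome, counts, a divided estimated count, signal scaled to library size and the score of each site, per the file headers. The mapper, database release and genome build were not given in the sources used here.

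Members and comparison lists were chosen with earlier results of these data known. Each distinct sequence was used once and values were rounded (0.5 up), since the test was planned for whole counts. A minimum of 10 reads in 2 or more libraries was required. The test came from edgeR 4.0.16 (R 4.3.3, quasi-likelihood test, TMM, all 6 libraries, time as the only factor, Benjamini-Hochberg threshold 0.05, 2-sided). The SE is the size of the log2 change over the root of its F value. The spread is shared over features (prior degrees of freedom 202 for sequences and 26.7 for families), so SE and p rest mainly on other features. p-values thus measure a spread between libraries of one time point, 2 each, that is mostly pooled over features. DESeq2 1.42.0 and other scalings were alternatives. Members were named with their values or ranges, and those of a shared value once together. Likeness used log2 CPM with a prior count of 2. Shares have exact 95% binomial intervals from rounded reads, and PCR copies are not independent molecules.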

Additional observations from a re-analysis of the deposited data

How the results depend on the processing

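Alternatives to rounding and to the counting of shared values were chosen after seeing the data. Sequences called at 12 h against 0 h numbered 14, against 9 with DESeq2's size factors, 0 with library totals and 0 with totals without the 3 most abundant sequences, 8 with the replicate block and 0 to 15 with 1 library left out. At 24 h against 0 h they numbered 41, against 27 without the 3 most abundant sequences in the totals and 1 to 58 with 1 library left out. At 24 h against 12 h they numbered 0, against 1 each with the authors' constants, DESeq2 and 0.5 read rounded to the even number, and 0 to 3 with 1 library left out. Library totals called 52 sequences at 24 h against 0 h, 7 higher and 45 lower, in place of 11 higher and 30 lower, and moved the median log2 change of all sequences from 0.01 to −0.50. At 12 h the median moved to 0.23 without the 3 most abundant sequences and to −0.21 with the authors' constants.

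miR6300 at 24 h against 0 h stayed negative under every alternative run, from −2.68 (library totals) to −1.83 (without replicate 3 of 0 h), and lost its call with the authors' constants (−2.08). With 1 library left out its log2 change ranged from −2.47 to −1.83 at 24 h and from −2.50 to −1.07 at 12 h, and from −1.07 to 0.24 between 24 h and 12 h. For miR5368 it ranged from −2.26 to −0.77 at 12 h, from −1.22 to 0.30 at 24 h and from 0.27 to 2.05 between 24 h and 12 h. No pairing of samples by number was seen over the tested sequences, where deviations of same-numbered libraries correlated at −0.08, 0.16 and −0.23. This does not exclude a pairing. With the replicate block miR6300 was at −2.08 at 24 h (adjusted p = 0.0117, edgeR), while 1 of the 15 member values was called at 12 h and 1 at 24 h, in place of 4 and 4.

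With 1 library left out, changes that turned sign at 24 h ranged from −2.51 to 0.28 for gma-miR6300_R+6_1, −2.25 to 0.77 for gma-MIR6300-p3_1ss8AG, −1.56 to 0.77 for gma-MIR5368-p3_1ss4GA, −1.25 to 0.77 for gma-MIR5368-p3_1ss3TC, −0.83 to 1.03 for gma-MIR5368-p3_1ss5TC and −1.12 to 0.27 for gma-MIR5368-p3_2ss13GA17AG, and at 12 h from −1.10 to 0.11 for the last. Library totals turned gma-MIR5368-p3_1ss3TC to −0.34 and gma-MIR5368-p3_1ss5TC to −0.050 at 24 h, and the replicate block turned the former to −0.029. None of these was called. Changes of single members between 24 h and 12 h are not reported. The cause of these shifts was not tested. Leaving out the entries named as precursor arms kept the share of R+4 to R+7 within 1 SD at each time point. These entries held only 0.432 to 3.83% of miR6300 reads per library, so the share could hardly move.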
